A study of Mus musculus with 6 samples.

Results

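Oxidative phosphorylation subunits were the 80 genes whose symbols name structural subunits of the respiratory chain or of ATP synthase, among 18193 genes measured on Affymetrix mouse arrays in aortic roots. Members were taken from probe sets annotated to exactly 1 gene by their symbol alone, and each gene was read from its probe set with the highest mean log2 signal over the 6 arrays. Complex I (NADH dehydrogenase) held 35 members, complex II (succinate dehydrogenase) 4, complex III (ubiquinol-cytochrome c reductase) 9, complex IV (cytochrome c oxidase) 15 and complex V (ATP synthase) 17. Cox7a1 and Cox8b, isoforms of striated muscle and brown fat, were set aside and are described separately below. The klotho-deficient group was 3 arrays of mice with both klotho alleles mutant, and the wild-type group was 3 arrays of mice with both alleles normal, all on an albino C57BL/6J strain and aged 6.0 to 6.5 weeks. Each array carried pooled RNA from the roots of 3 mice, so the replicates were pools and p-values measure the spread between pools. The dissected tissue joined valve, annulus and the first part of the aorta, so it is a mixture of cell types; in such bulk samples fewer cells of a type and less RNA per cell cannot be told apart.

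Oxidative phosphorylation passes electrons from NADH and succinate through complexes I to IV to oxygen and uses the proton gradient so built to make ATP at complex V. All complexes except II combine a few subunits encoded in mitochondrial DNA with many encoded in the nucleus; the members here are the nuclear ones. Cardiac muscle is especially rich in these complexes, whereas the valve interstitial, smooth muscle, fibroblast and endothelial cells of the root carry them as housekeeping machinery. The comparison of klotho-deficient with wild-type roots asks whether transcripts of this machinery differ in a tissue that lacks the co-receptor of the phosphate-regulating hormone FGF23, as far as the mutant allele removes it. Kl itself, the mutated gene, gave signals of 138.3, 217.4 and 189.1 in klotho-deficient roots and of 166.7, 184.7 and 202.1 in wild-type roots, so it did not separate the genotypes and did not check the labels.

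No subunit gene passed the threshold between the genotypes. Across all 18193 genes limma with Benjamini-Hochberg adjustment at 0.05 called 0 genes higher and 0 lower (0% each), and the smallest adjusted p of any member was 0.723. At an unadjusted p under 0.05 there was 1 member higher and 1 lower, where 3.25% of all genes were higher and 3.16% lower at that level. Most members nevertheless had the same sign: 63 of 80 (78.8%) had a negative log2 difference, klotho-deficient minus wild type, and 17 a positive one, against 49.6% of all genes with a negative difference and 50.4% with a positive one. The median member difference was -0.15 on the log2 scale, and that of all genes was 0.00. The differences ran from -0.51 to 1.11, with a median standard error of 0.22. For 78 of 80 members the 95% confidence interval of the difference included 0, and for 75 it lay wholly between -1 and 1, so a doubling or a halving was outside the interval of those members.

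The small negative shift was carried by wild-type replicate 3. Taking each gene as its deviation from its own mean over the 6 arrays, the median member stood at -0.07, 0.02 and -0.14 on klotho-deficient replicates 1, 2 and 3, and at -0.05, -0.08 and 0.36 on wild-type replicates 1, 2 and 3. Wild-type replicate 3 was the highest of the 6 arrays for 64 of 80 members (80%), where it was the highest for 22.7% of all genes. Klotho-deficient replicate 3 was the lowest array for 32 members (40%), against 19.2% of all genes. Wild-type replicates 1 and 2 lay inside the klotho-deficient range of the list. Within the wild-type group, replicate 3 exceeded both other arrays in 70 members, and its signal was a median of 1.32-fold that of the other 2, with a highest value of 1.92-fold.

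Without wild-type replicate 3 the median member difference was -0.01, with 45 members lower and 35 higher. Without replicate 3 of both genotypes it was 0.05, with 30 members lower. Without klotho-deficient replicate 1 it was -0.15, and without klotho-deficient replicate 3 it was -0.10. The direction of the list as a whole therefore rested on 1 wild-type pool. The standing of that array was not peculiar to one complex: its median deviation was 0.39 in complex I, 0.17 in complex II, 0.41 in complex III, 0.31 in complex IV and 0.37 in complex V.

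**Figure D1:**
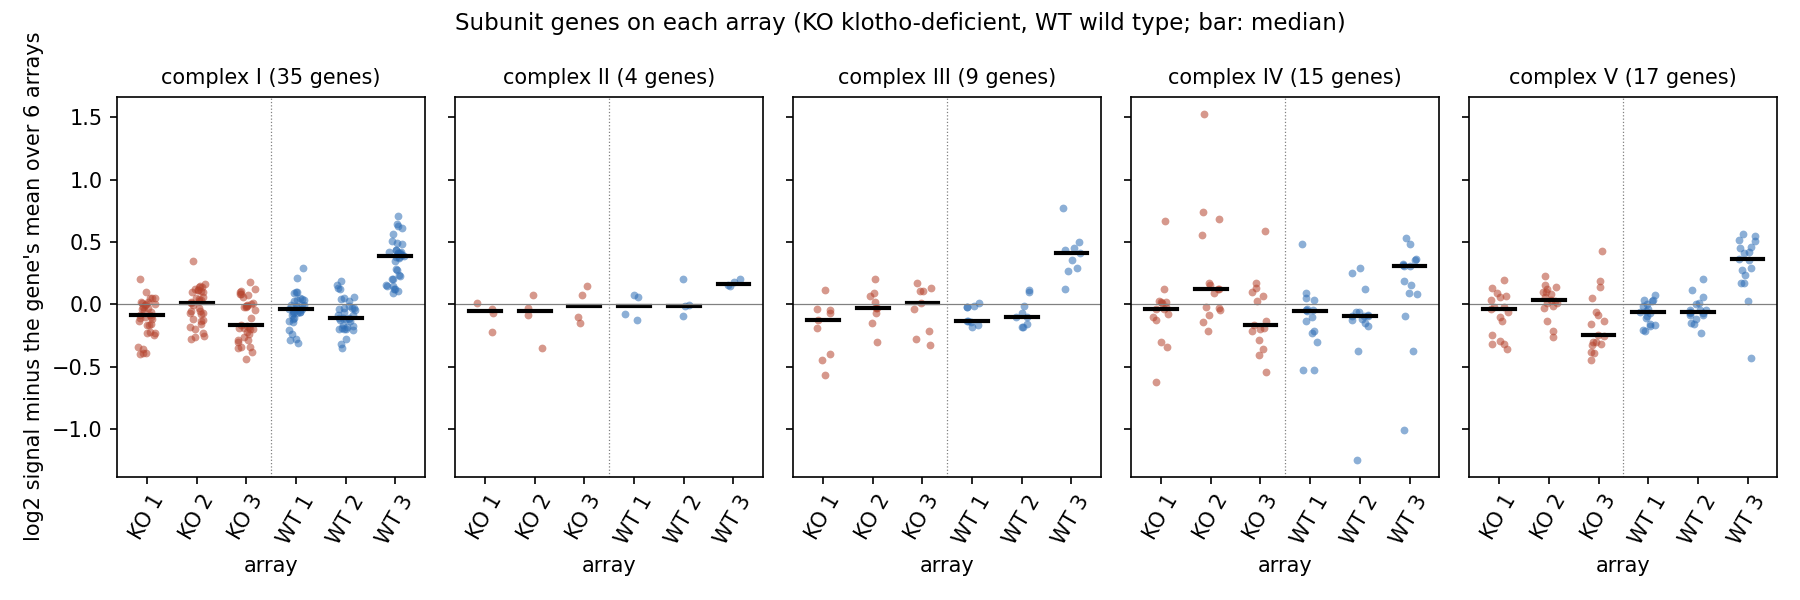
Each point is 1 subunit gene, plotted as its log2 signal minus its mean over the 6 arrays (y axis) on each klotho-deficient (KO) and wild-type (WT) array (x axis), in 1 panel per complex, with a bar at the median. Wild-type replicate 3 stands highest in all 5 panels, with medians of 0.17 to 0.41, and the other arrays have medians of -0.25 to 0.12.

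Wild-type replicate 3 also stood apart in other measures. The Gapdh control probe sets, whose 3' over 5' signal tracks how intact the RNA was, gave a ratio of 7.18 there, compared with 4.08, 3.77 and 3.23 for klotho-deficient roots and 3.72 and 3.51 for the remaining wild-type pools. For Actb no such separation was seen (1.1 there). Endothelial markers, 8 of 8 measured and all above background, had summed signals of 33295, 29087 and 37318 in klotho-deficient roots, against 31700, 33380 and 60646 in wild-type roots, so they too were highest on wild-type replicate 3. Bright probe sets in general leaned the same way but less: 1151 genes outside the list with a mean signal over 10000 had a median deviation of 0.13 on wild-type replicate 3, whereas the 44 members over 10000 had 0.38 and the 36 dimmer members 0.26. The part of RNA quality, brightness or cell content in the members' values was not tested.

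Cardiomyocytes, the cells of the root's neighbourhood with most mitochondria, were present to different degrees in the pools. All 23 measured cardiomyocyte markers were detected on at least some arrays, 22 of them on every array, and their summed signals were 109730, 197760 and 150844 in klotho-deficient roots and 103827, 167710 and 168952 in wild-type roots. Replicate 1 was thus the lowest in each genotype. Among the subunits 9 of 80 members (11.2%) were lower on both of those arrays than on all other arrays. The same held for 14 of the 23 cardiomyocyte markers and for 6.9% of all genes. With the mean of the cardiomyocyte markers as a covariate the median member difference was -0.17 with 65 members lower, and without replicate 1 of both genotypes it was -0.20 with 70 lower. The part of cardiomyocyte content in the members' values was not tested. Y-linked transcripts exceeded background in all 3 wild-type pools but in klotho-deficient pool 1 alone. Kdm5d, one of them, had 2516.3, 16.1 and 5.8 in klotho-deficient roots and 2745.5, 3267.9 and 2512.1 in wild-type roots. Sex was therefore partly confounded with genotype, and its part was not tested. With Y-linked presence as a covariate the median was -0.13, which sets klotho-deficient replicate 1 alone against the 3 wild-type arrays.

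Upstream sequence is shown for 6 members, chosen after their values were seen: Ndufa3, Uqcr11 and Atp5e had the largest negative differences in complexes I, III and V, and Atp5g1, Atp5g2 and Atp5g3 encode the same subunit. The lines give the 120 bases before the annotated transcription start, 5' to 3' on the gene's strand, from RefSeq (GRCm38.p6), with letters matching a searched motif in capitals. Windows are chr15:102671048-102671167 (minus strand) for Atp5g2, chr11:96075632-96075751 (minus strand) for Atp5g1, chr2:73911327-73911446 (minus strand) for Atp5g3, chr7:3617253-3617372 (plus strand) for Ndufa3, chr2:174464102-174464221 (minus strand) for Atp5e and chr10:80406822-80406941 (minus strand) for Uqcr11.
Atp5g2: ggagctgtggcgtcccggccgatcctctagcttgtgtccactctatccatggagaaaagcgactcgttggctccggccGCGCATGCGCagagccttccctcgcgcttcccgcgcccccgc
Atp5g1: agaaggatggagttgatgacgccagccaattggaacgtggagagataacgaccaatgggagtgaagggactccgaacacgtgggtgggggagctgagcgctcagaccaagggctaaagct
Atp5g3: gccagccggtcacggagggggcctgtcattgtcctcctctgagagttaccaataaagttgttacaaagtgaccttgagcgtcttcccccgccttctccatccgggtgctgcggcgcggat
Ndufa3: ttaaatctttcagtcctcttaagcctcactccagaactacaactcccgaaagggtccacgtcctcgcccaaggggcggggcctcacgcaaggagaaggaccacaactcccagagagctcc
Atp5e: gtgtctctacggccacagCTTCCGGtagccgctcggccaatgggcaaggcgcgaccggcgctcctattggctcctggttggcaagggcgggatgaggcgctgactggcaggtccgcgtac
Uqcr11: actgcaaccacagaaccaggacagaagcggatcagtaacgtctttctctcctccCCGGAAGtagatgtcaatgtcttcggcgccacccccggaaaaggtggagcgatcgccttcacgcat
The capitals in Atp5g2 are the letters of NRF1, a nuclear factor known to drive respiratory genes. Those in Atp5e and Uqcr11 are the core letters of ETS factors such as GABP (NRF2), shown on either strand. The other 3 windows hold no match. Outside the windows, but within the promoters of 300 bases counted below, Atp5g3 had the NRF1 letters just after the start. Ndufa3 had the YY1 letters after the start and the TATA letters further upstream, and Atp5g1 had no match.

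Motif letters were counted in all promoters of the same length, with no test. RefSeq held a promoter of 300 bases, from 250 before to 50 after the start, for 64 of the 80 members. The NRF1 letters were found on either strand in 15 of 64 members (23.4%), in 10.7% of the 10710 array genes above background with a promoter, and in 5.2% of all 27025 genes of the table. The ETS letters CCGGAAG were found in 26.6%, 18.4% and 9.9%, and the letters AAGATGG of YY1 in 15.6%, 7.9% and 7.3%. The TATA letters TATAAA were found in 10.9%, 9.7% and 15.7%. In the 250 bases before the start alone, the YY1 letters were in 1 of 64 members (1.6%), in 4.9% of array genes above background and in 5.2% of the whole table, so the members' matches to YY1 lay almost all at or after the start. The G+C share of these promoters was 58.0% in members, 60.1% in array genes above background and 53.8% in the whole table. Members with the NRF1 or ETS letters, 28 in number, had a median log2 difference of -0.17, and the 36 members with a promoter but neither motif had -0.16, so the letters did not divide members that differed more from members that differed less.

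Complex I, which takes electrons from NADH, had a median difference of -0.18, with 28 of 35 members lower and 7 higher. Its nuclear core subunits, which carry the flavin and iron-sulfur centres, were evenly divided, 3 lower and 3 higher with a median of -0.03. Ndufs1, the largest core subunit, gave signals of 3719.5, 3801.7 and 3693.4 in the klotho-deficient pools and of 3003.5, 4139.8 and 4059.1 in the wild-type pools (0.02 ± 0.20). Ndufv1, which binds NADH and the flavin, gave 6750.7, 6606.0 and 6541.1 in the klotho-deficient pools and 5658.7, 6253.7 and 7503.5 in the wild-type pools (0.05 ± 0.18). Ndufs3 was at 0.00 and Ndufv2 at -0.06, and the larger negative differences were those of Ndufs7 (-0.26 ± 0.20) and Ndufs8 (-0.32 ± 0.26). Ndufs7 was at -0.12 without wild-type replicate 3, and its other probe set, above background, went the other way at 0.18 (1314 against 1152). Ndufs8 had 4686.1, 5883.3 and 6157.2 in klotho-deficient roots and 6001.4, 5717.7 and 9538.2 in wild-type roots, and was at -0.08 without wild-type replicate 3. Its 5 other probe sets gave -0.70 to -0.27. In all 6 core genes the genotypes overlapped.

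The 29 other members named for complex I had a median of -0.18, with 25 lower, and 4 of the 35 members of the complex were lower on every klotho-deficient array than on every wild-type array. Over all 80 members 5 were lower without overlap (6.25%) and 1 higher (1.25%), and over all genes 6.84% were lower and 6.63% higher, so the members' counts were near or under those of the background. Ndufa3, a small accessory subunit of the membrane arm, had the lowest p among the members. Its signals were 8454.1, 10146.8 and 9259.2 in klotho-deficient roots and 13572.5, 12634.4 and 13515.8 in wild-type roots. All 3 klotho-deficient pools lay below the wild-type pools, with means of 9287 ± 847 and 13241 ± 526 (SD, n = 3 each), a log2 difference of -0.51 ± 0.17 (SE) and an adjusted p of 0.723 in limma. This gene did not depend on wild-type replicate 3, its difference being -0.50 without that array. A second bright Ndufa3 probe set gave -0.38 (7519 against 9783), also without overlap, and another, dim one gave 0.10 (365 against 327).

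Ndufb2, Ndufc1 and Ndufv3, also accessory subunits, were lower without overlap but by less once wild-type replicate 3 was set aside. Ndufb2 had 3943.4, 4472.3 and 4505.8 in klotho-deficient roots and 5205.3, 4912.3 and 8266.7 in wild-type roots. Ndufc1 had 24515.1, 27965.3 and 24616.2 in klotho-deficient roots and 28441.6, 30234.1 and 40901.1 in wild-type roots. In each the last wild-type value stood well above the other 2, and the differences of -0.47 ± 0.25 and -0.35 ± 0.21 (adjusted p = 0.804 and 0.813 in limma) were -0.23 and -0.19 without it. Ndufv3 had a difference of -0.23 ± 0.20 with all arrays and of -0.10 without that array.

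Ndufa4, named for complex I and now known as a subunit of complex IV, and its hypoxia-induced paralogue Ndufa4l2 both overlapped between the genotypes. Ndufa4 had 14756.0, 19101.9 and 15229.8 in klotho-deficient roots and 16080.4, 16906.1 and 23178.2 in wild-type roots (-0.18 ± 0.22). Ndufa4l2 had 430.9, 472.3 and 458.4 in klotho-deficient roots and 411.1, 333.2 and 462.1 in wild-type roots (0.19 ± 0.19). The adjusted p values in limma were 0.901 and 0.886. The signs were opposite, and the difference between the 2 genes was not tested.

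**Figure D2:**
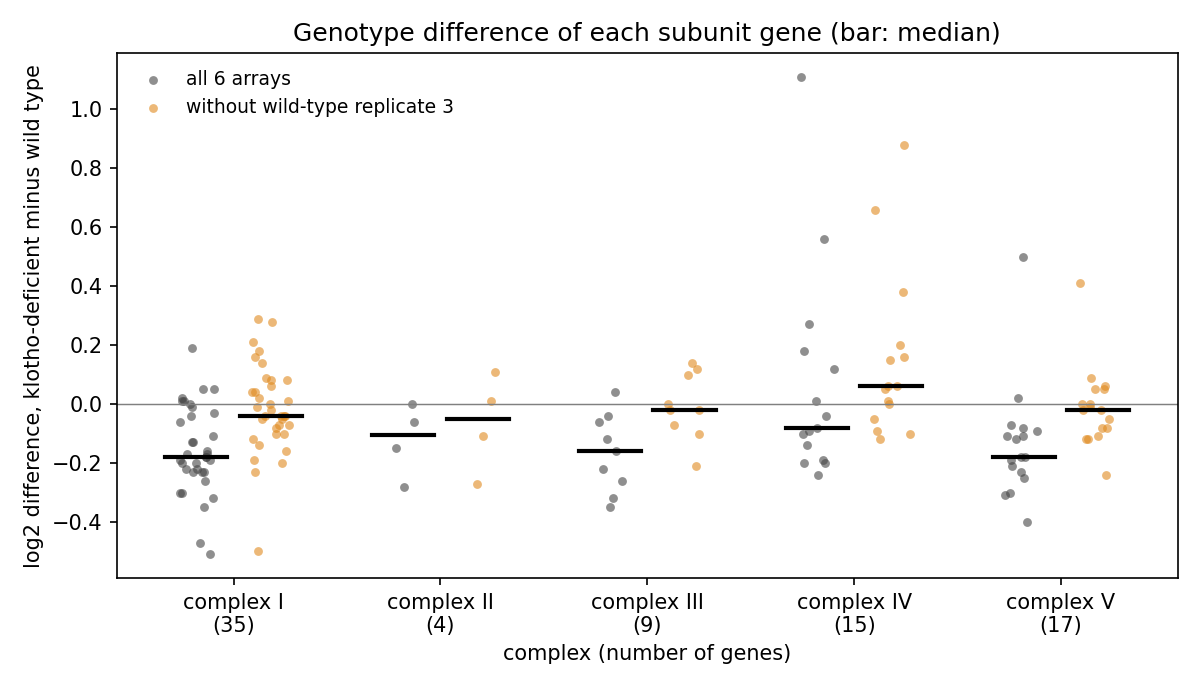
Each point is the log2 difference of 1 subunit gene, klotho-deficient minus wild type (y axis), by complex with its number of genes (x axis), from all 6 arrays (grey) and without wild-type replicate 3 (orange), with bars at the medians. The medians of -0.18 to -0.08 from all arrays become -0.05 to 0.06 without that array.

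Complex II, which oxidises succinate and belongs to the tricarboxylic acid cycle too, moved least with wild-type replicate 3. Sdha, the flavoprotein that binds succinate, had 27915.4, 26166.0 and 24960.4 in klotho-deficient roots and 29262.1, 27556.5 and 30770.7 in wild-type roots (-0.15 ± 0.16). Sdhb, the iron-sulfur subunit, had 5364.3, 5398.8 and 5789.4 in klotho-deficient and 5052.9, 5177.8 and 6355.9 in wild-type roots. It differed by 0.00, with a 95% interval from -0.43 to 0.44. The membrane anchors differed in size: Sdhc was -0.28 ± 0.20, and -0.27 without wild-type replicate 3, and Sdhd was -0.06 ± 0.17. Sdhc had 7884.8, 7246.5 and 10207.0 in klotho-deficient roots and 9571.7, 10633.5 and 10245.1 in wild-type roots, so klotho-deficient replicate 3 overlapped the wild-type pools. The adjusted p values in limma of these 4 genes were 0.831 to 0.998.

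Complex III, which passes electrons from ubiquinol to cytochrome c, had a median of -0.16, with 8 of 9 members lower. Cyc1, Uqcrfs1, Uqcrc1 and Uqcrc2, the nuclear redox subunits and the large core proteins, had a median of -0.05, and the 5 small subunits a median of -0.22. Uqcr11, a small subunit, had 3400.2, 4045.7 and 4510.0 in klotho-deficient roots and 4405.8, 4790.8 and 6112.5 in wild-type roots, with overlap of klotho-deficient replicate 3 and wild-type replicate 1 (-0.35 ± 0.21, adjusted p = 0.813 in limma). Cyc1, cytochrome c1, had 4898.9, 4536.3 and 6010.2 in klotho-deficient and 5514.1, 5211.5 and 7926.9 in wild-type roots (-0.26 ± 0.24). Uqcr10 had 4281.1, 6243.9 and 6862.2 in klotho-deficient roots and 5805.1, 5692.9 and 10839.4 in wild-type roots, and its difference of -0.32 ± 0.34 was -0.02 without wild-type replicate 3. Its 2 other probe sets, both dimmer and above background, gave -1.04 and -0.76. The probe set at -1.04 had 440.3, 396.6 and 250.6 in klotho-deficient roots and 548.1, 711.7 and 985.1 in wild-type roots without overlap, so the probe sets of Uqcr10 differed in size and in how far they rested on wild-type replicate 3. Complex III as a whole had a median of -0.02 without that array.

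Complex IV, which reduces oxygen, contains subunits that come as alternative isoforms in different tissues. Its 10 common subunits among the members had a median difference of -0.09, 8 lower and 2 higher. Cox4i1, the regulatory subunit found in nearly all tissues, had 22099.0, 20997.9 and 22071.9 in klotho-deficient roots and 21000.8, 20793.5 and 23158.4 in wild-type roots. Its difference was 0.01 with a 95% interval from -0.38 to 0.40. The other common members named by the rule were Cox5a at -0.10, Cox5b at -0.04, Cox6a1 at -0.20, Cox6b1 at -0.20, Cox7a2 at -0.14, Cox7a2l, a supercomplex factor, at -0.08 and Cox8a at -0.09. The remaining common subunits among the members were Cox6c at -0.19 and Cox7c at 0.27 ± 0.30, the larger of the 2 positive differences. Cox7b, another common subunit, was not among the members, so this group was not complete. Cox7c, read from a dim probe set, had 586.0, 935.1 and 477.8 in klotho-deficient roots and 602.3, 550.8 and 449.6 in wild-type roots, with overlap. Cox6b1 shows the wild-type pattern plainly, with 14067.5, 13994.4 and 13572.8 in klotho-deficient roots and 13822.8, 13964.8 and 20777.2 in wild-type roots. The other 5 values lay within a narrow range and wild-type replicate 3 stood alone.

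The tissue-restricted isoforms of complex IV varied more between pools. Cox4i2, the isoform of lung and of low oxygen, had 351.1, 637.0 and 651.9 in klotho-deficient roots and 606.8, 182.8 and 406.4 in wild-type roots (0.56 ± 0.50, adjusted p = 0.865 in limma). Cox6a2, the isoform of heart and skeletal muscle, had 1168.6, 3018.1 and 1881.8 in klotho-deficient roots and 1252.4, 2140.8 and 1911.6 in wild-type roots, lowest on replicate 1 of each genotype as the summed cardiomyocyte markers were. Its difference was 0.12 ± 0.40, and 0.02 with the cardiomyocyte markers as a covariate. Cox6b2 and Cox8c, known from testis, were dim and overlapped (-0.24 ± 0.24 and 0.18 ± 0.24). Cox7b2, also a testis isoform, was the 1 member below the highest Bacillus control (161.8) on all 6 arrays, and its difference of 1.11, the largest of any member, therefore carried no measured fold; the other 79 members were above that level on every array.

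Cox8b and Cox7a1, the muscle and brown fat isoforms that the member rule leaves out, had larger negative differences than any member. Cox8b had 977.9, 1936.2 and 969.6 in klotho-deficient roots and 1895.0, 2617.1 and 2841.0 in wild-type roots. Only klotho-deficient replicate 2 reached the wild-type range, and the difference was -0.98 ± 0.34 (adjusted p = 0.748 in limma). Cox7a1 had 567.6, 1422.7 and 882.4 in klotho-deficient roots and 925.2, 2083.7 and 2066.9 in wild-type roots, with overlap (-0.83 ± 0.47, adjusted p = 0.813). Both were lowest on replicate 1 within wild type, where cardiomyocyte markers were also low. Within klotho-deficient roots Cox7a1 was lowest on replicate 1, but Cox8b was as low on replicate 3 as on replicate 1. The median of the 2 genes was -0.9 with all arrays. It was -1.0 with the cardiomyocyte covariate and -0.94 without replicate 1 of both genotypes. With the Y-linked covariate it was -1.39. Cardiomyocyte markers themselves had a median difference of 0.00, running from -0.68 to 1.73 with 11 lower and 12 higher. The 10 skeletal muscle markers had a median of 0.21, with 3 lower and 7 higher, but only 3 of the 10 were above background on every array. All 6 measured brown adipocyte markers had negative differences, with a median of -0.68. Only 2 of the 6 were above background on every array and 4 on average. With the Y-linked covariate, which leaves klotho-deficient replicate 1 alone against wild type, the median was -0.30, with 4 lower and 2 higher. The brown fat marker Ucp1 had 191.7, 362.0 and 82.6 in klotho-deficient roots and 277.1, 915.2 and 146.4 in wild-type roots, with overlap. The summed brown adipocyte signals were 18311, 16988 and 17531 in klotho-deficient roots and 22538, 21822 and 18467 in wild-type roots. Dio2 alone gave 8794.0, 9588.4 and 9013.9 of these in klotho-deficient roots and 13304.5, 10813.1 and 10777.0 in wild-type roots. A large part of each sum thus came from 1 gene, and Otop1 was below background on all arrays. The part of muscle or fat content in these 2 isoforms was not tested.

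**Figure D3:**
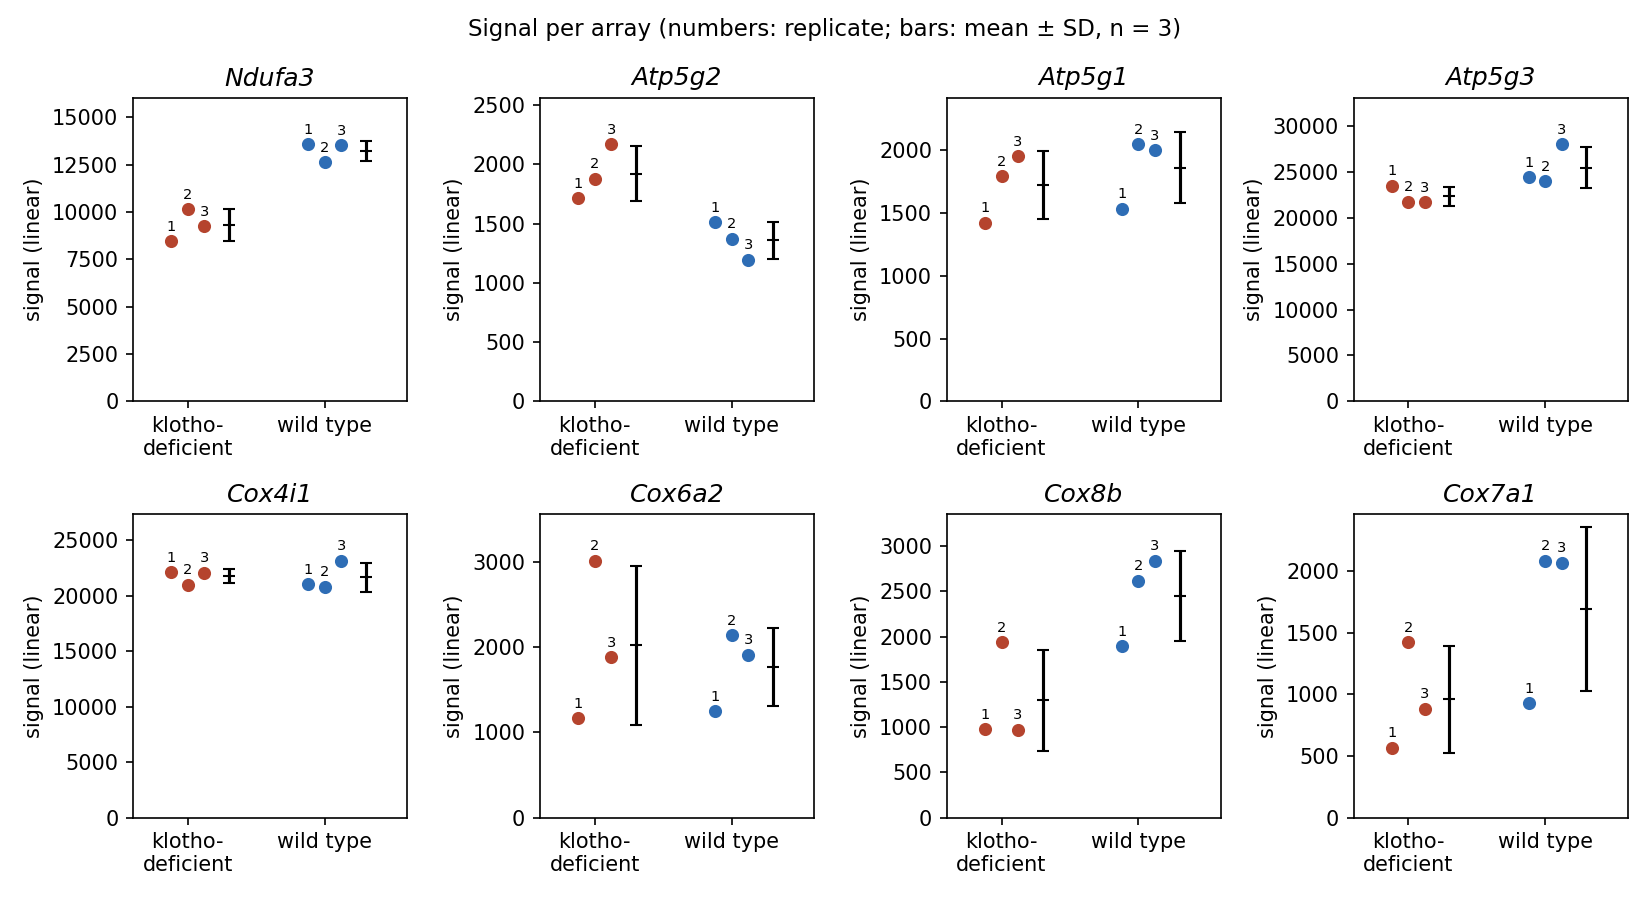
Linear signals (y axis) of 8 genes are plotted for the 3 klotho-deficient and 3 wild-type arrays (x axis), each point numbered by replicate, with the mean ± SD (n = 3) beside them. Ndufa3 and Atp5g3 are lower and Atp5g2 is higher in all klotho-deficient arrays, Cox4i1 spans 20793.5 to 23158.4, and Cox6a2 is lowest on replicate 1 of each genotype.

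Complex V, which makes ATP, had a median of -0.18 with 15 of 17 members lower. The F1 part, the head with the catalytic sites together with the central stalk, had a median of -0.08 over its 5 subunits. The peripheral stalk and membrane subunits other than subunit c had -0.21, all 9 of them lower. Atp5h, a subunit of the peripheral stalk, had 50798.3, 53808.4 and 36859.8 in klotho-deficient roots and 49594.8, 43660.1 and 58400.5 in wild-type roots (-0.11 ± 0.23). Atp5e, the epsilon subunit of the F1 central stalk, had 11730.3, 15611.8 and 12178.7 in klotho-deficient roots and 15813.7, 14993.1 and 21435.6 in wild-type roots. It overlapped through klotho-deficient replicate 2 (-0.40 ± 0.23, adjusted p = 0.813 in limma), and the difference was -0.24 without wild-type replicate 3. Atp5mpl, a small membrane subunit, was -0.30 ± 0.24 and then -0.12.

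Subunit c, the proton-carrying ring, is encoded by Atp5g1, Atp5g2 and Atp5g3, whose proteins are known to differ in the leader that is cut off on import. Atp5g2 was the 1 member higher on every klotho-deficient array, with 1716.6, 1880.4 and 2169.6 in klotho-deficient roots and 1511.7, 1371.4 and 1196.8 in wild-type roots. Its means were 1922 ± 229 and 1360 ± 158 (SD, n = 3 each), a difference of 0.50 ± 0.19 (1.41-fold higher, adjusted p = 0.763 in limma), and 0.41 without wild-type replicate 3. In this gene wild-type replicate 3 was the lowest of the 6 arrays, opposite to most members. Its other probe sets were dim and did not show the difference, at -0.05 (236 against 239) and -0.03 (98.1 against 102). Probe sets of this gene thus disagreed.

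Atp5g3 went the other way, with 23510.7, 21765.6 and 21698.7 in klotho-deficient roots and 24418.2, 23956.5 and 28001.0 in wild-type roots. The pools did not overlap, but the difference was small, at -0.19 ± 0.17 (adjusted p = 0.866 in limma) and -0.12 without wild-type replicate 3. Atp5g1 overlapped, with 1421.8, 1790.3 and 1950.4 in klotho-deficient roots and 1534.0, 2046.5 and 1998.3 in wild-type roots (-0.11 ± 0.22). The 3 genes thus had differences of 0.50, -0.19 and -0.11, and the contrast between them was not tested.

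The probe sets behind these values were of unequal kind. Of the 80 used, 12 were of the type that Affymetrix marks as matching transcripts of more than 1 gene and 9 of the type in which some probes may cross-hybridise, with median differences of -0.16 and -0.23, against -0.16 for the 31 plain probe sets. The other 28, of a further marked type, had a median of -0.13. Other probe sets above background, 75 of 46 members, had a median of -0.16, and 59 of them shared the sign of the probe set used.

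Genes that build and feed the complexes gave the setting for the members, from lists chosen with earlier results of these data known. In limma 0 genes of each list passed over all genes. The 44 measured assembly factors had a median of -0.17 with 34 lower, and the 76 mitochondrial ribosomal proteins, which translate the mitochondrial subunits, a median of -0.14 with 56 lower. The 46 measured cytosolic ribosomal proteins had a smaller median of -0.04, but 36 of them (78.3%) were lower, a share like the 78.8% of the subunits, and wild-type replicate 3 was highest for 76.1%, so the one-sided sign was not particular to the subunits. The 17 enzymes of the tricarboxylic acid cycle and pyruvate dehydrogenase had 0.01, with 8 lower and 9 higher, and the 16 genes of electron carriers and coenzyme Q synthesis -0.02, with 8 lower and 8 higher. The 24 regulators of mitochondrial biogenesis had 0.07, with 14 higher and 10 lower. Ppargc1a, the PGC-1alpha coactivator, had 1172.7, 1195.2 and 996.5 in klotho-deficient roots and 946.4, 1166.7 and 596.3 in wild-type roots, with overlap, and Esrra, its nuclear receptor partner, differed by 0.04 ± 0.38. Among the regulators Sirt1, a NAD-dependent deacetylase, had the lowest p, at 1700.4, 1349.5 and 1555.7 in klotho-deficient roots and 849.7, 1042.4 and 762.3 in wild-type roots without overlap (0.80 ± 0.20, adjusted p = 0.67 in limma). Tfb1m, a mitochondrial rRNA methyltransferase, was lower without overlap (-0.51 ± 0.22, adjusted p = 0.77).

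High values on wild-type replicate 3 were shared with some of these lists and not with others. The median deviation on that array was 0.31 for assembly factors, 0.29 for mitochondrial and 0.30 for cytosolic ribosomal proteins, but 0.06 for the tricarboxylic acid cycle and -0.04 for biogenesis regulators, against 0.03 for all genes. Cytosolic ribosomal proteins, like the subunits, were also low on klotho-deficient replicate 3, at -0.27 and -0.14. Atpif1, the inhibitor of ATP synthase, had 26510.8, 28584.4 and 23902.4 in klotho-deficient roots and 27111.7, 25850.0 and 41391.3 in wild-type roots, with the last array alone high. Without wild-type replicate 3 the assembly factors kept a median of -0.13 with 32 of 44 lower, and the mitochondrial ribosomal proteins had -0.02 with 40 of 76 lower.

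**Figure D4:**
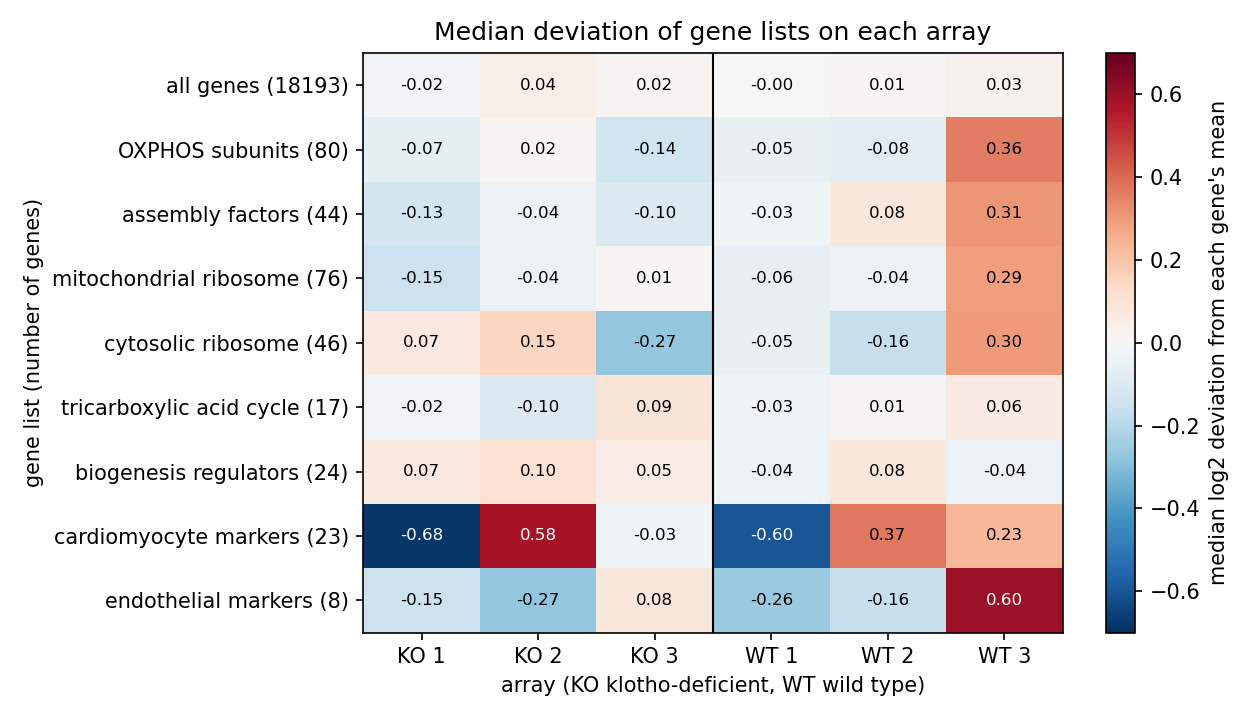
Each cell gives the median over a gene list (rows, with the number of genes) of the log2 deviation from each gene's mean over the 6 arrays, on each klotho-deficient (KO) and wild-type (WT) array (columns). Subunits, assembly factors and both ribosomes are at 0.29 to 0.36 on wild-type replicate 3, and cardiomyocyte markers are lowest on replicate 1 of each genotype, at -0.68 and -0.60.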

How the data were processed

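Values were linear array intensities as deposited by the authors, 1 per probe set for 45101 probe sets; RMA, with no version, is named per the submitters' processing notes, and how the linear scale arose is not known here. The deposited intensities shared a mean, after trimming 2% at each end, of 1500.0 on every array, with medians of 425.6 to 556.6. They were log2-transformed with no pseudocount or further normalization. By GEO's platform annotation 34945 probe sets had 1 gene, 932 several and 9160 none, beside 64 controls; no build is given for the array. Probe sets with several symbols were left out.

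The 18193 genes were fitted together by limma's lmFit and eBayes (version 3.58.1, R 4.3.3), with two-sided tests, 4 residual and 2.1 prior degrees of freedom, and Benjamini-Hochberg adjustment at 0.05, and members were read from that fit. The procedure was also run on simulated arrays, with genes independent of each other and upward changes larger than nearly all member differences. That run therefore does not cover small shifts shared by many genes, such as those of the members. Background was the highest of 27 Bacillus control probe sets, 161.8, which 13322 genes exceeded on average. Depth does not apply to arrays; their number limits the precision.

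The members and lists, and the division of complexes into groups of subunits, were chosen with earlier results of these data known, so lists are described by counts and medians with no test. Named members were the 3 of smallest p in complexes I, III, IV and V, complex II, paralogous isoforms, and the extremes of signal and difference; 2 genes of smallest p were taken per related list. Others (the complex I core genes, Ndufv3, Cox6c, Cox7c, Ppargc1a, Esrra, Ucp1, Atpif1 and those in the other observations) were chosen after their values were seen. Alternatives were quantile normalization, a block for replicate number, an offset of 100, centring on medians, leaving out dim genes, a trended robust prior, other summaries of probe sets, covariates, and arrays left out. Figures used matplotlib 3.10.9.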

Additional observations from a re-analysis of the deposited data

How the results depend on the processing

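Over 19 alternatives 0 members passed the threshold in either direction, the lowest adjusted p of a named member being 0.413 in limma. Over all genes 0 were called in the comparison as reported (1166 at an unadjusted p under 0.05), 1 with dim genes left out, 1 with an offset before log2, 2 with a trended robust prior, and 0 to 1 as arrays were left out. The median member difference ran from -0.24 to 0.05 as arrays were left out, from -0.28 to 0.03 in complex I, -0.14 to -0.01 in complex II, -0.29 to 0.04 in complex III, -0.14 to 0.14 in complex IV and -0.30 to 0.03 in complex V; the upper ends came without replicate 3 of both genotypes. Without wild-type replicate 3 alone complex IV stood at 0.06. With quantile normalization complex II stood at -0.03, complex III at -0.10 and complex IV at -0.01.

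With the replicate number as a block the median member difference stayed at -0.15 with 63 lower and 0 genes called. The deviations of same-numbered arrays correlated at 0.17, -0.01 and 0.16 across genes. Weak correlations over all genes cannot decide whether the numbers paired the samples, because a smaller set of genes may still follow the number. Of the 23 cardiomyocyte markers 14 were lower on both replicate 1 arrays than on all other arrays, against 6.9% of all genes. Pairing by replicate number was not tested.

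Of 31 named members 15 kept their sign in every alternative and 16 did not; none was past the threshold, and the cause was not tested. With the second-brightest probe set Atp5g1 was 0.06, Atp5g2 -0.05, Cox6a2 -0.10, Cox8a 0.06 and Sdha 0.10, and with the mean of probe sets Cox8a was 0.12. With quantile normalization Cox5b was 0.02 and Sdhd 0.0012, and with median centring Sdhb was -0.00078. With a covariate for Y-linked transcripts Atp5h was 0.02, Cox4i2 -0.02, Cox5b 0.0024, Cox6a2 -0.56, Cox7a2l 0.08 and Sdhb -0.04. That fit sets klotho-deficient replicate 1 alone against the wild-type arrays. With the cardiomyocyte covariate Sdhb was -0.0053. As arrays were left out, singly or by replicate number, Atp5g1 ran from -0.25 to 0.02, Atp5h from -0.31 to 0.17, Cox4i1 from -0.03 to 0.06, Cox4i2 from -0.05 to 1.24, Cox5a from -0.19 to 0.05, Cox5b from -0.17 to 0.14, Cox6a2 from -0.22 to 0.47, Cox6b1 from -0.31 to 0.01, Cox7a2 from -0.35 to 0.15, Cox7a2l from -0.20 to 0.15, Cox8a from -0.23 to 0.16, Ndufa4 from -0.36 to 0.03, Sdhb from -0.06 to 0.11 and Sdhd from -0.14 to 0.05. Only Cox7b2 was below background (161.8), but some other members were not far above it. Ndufb4 read 190.8 to 294.0 over the 6 arrays, and Cox4i2 read 182.8 on wild-type replicate 2.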

Other observations

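Assembly factors, the proteins that insert cofactors and join subunits without staying in the finished complexes, held a number of genes lower in klotho-deficient roots without overlap; the difference from other lists was not tested. Of 44 measured, 12 (27.3%) were lower on every klotho-deficient array than on every wild-type array and 0 were higher. Over all genes 6.84% were lower and 6.63% higher in this way. Of these 44, 0 passed in limma over all genes. At an unadjusted p under 0.05 in limma 6 of the 44 were lower and 0 higher, where 3.16% of all genes were lower and 3.25% higher. Timmdc1, a membrane factor of complex I assembly, had 901.9, 1030.7 and 750.3 in klotho-deficient roots and 1793.8, 1545.2 and 1459.8 in wild-type roots (-0.85 ± 0.20, adjusted p = 0.67). Coa7, a factor of cytochrome c oxidase assembly, had 400.9, 410.2 and 373.6 in klotho-deficient roots and 603.4, 872.3 and 570.1 in wild-type roots (-0.76 ± 0.22, adjusted p = 0.671). Neither rested on wild-type replicate 3, their differences being -0.91 and -0.88 without it.

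Further assembly factors, singled out after their values were seen, were also lower on all klotho-deficient arrays. Sco1, which carries copper to cytochrome c oxidase, averaged 304 ± 55.9 in the klotho-deficient pools, against 458 ± 24.4 in the wild-type pools (SD, n = 3 each; -0.61 ± 0.20, adjusted p = 0.723). Bcs1l, which inserts the Rieske protein into complex III, had 648.4, 487.4 and 633.1 in klotho-deficient roots and 957.1, 701.8 and 992.7 in wild-type roots (-0.58 ± 0.23, adjusted p = 0.77). The complex I factors Ndufaf3 and Ndufaf5 differed by -0.76 ± 0.28 and -0.55 ± 0.21, and by -0.52 and -0.41 without wild-type replicate 3. All 4 were above background on every array.

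Mitochondrial ribosomal proteins held 13 of 76 genes (17.1%) lower without overlap and 2 (2.63%) higher, where all genes had 6.84% and 6.63%. Without wild-type replicate 3 the list's median was -0.02, with 40 of 76 lower. Mrpl36, a protein of the large subunit, had 709.0, 834.7 and 971.0 in klotho-deficient roots and 1087.8, 1313.6 and 1393.3 in wild-type roots (-0.60 ± 0.21, adjusted p = 0.744 in limma). Mrps11, of the small subunit, went the other way, with 603.1, 653.3 and 873.6 in klotho-deficient roots and 382.5, 463.8 and 580.8 in wild-type roots (0.58 ± 0.25, adjusted p = 0.77). Mrps25 differed by -0.49 ± 0.20.

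The genes of smallest p in the other lists also missed the threshold. In coenzyme Q synthesis Coq6 and Coq3 differed by 0.60 ± 0.27 and 0.37 ± 0.19. In the tricarboxylic acid cycle list Pdhx, a pyruvate dehydrogenase component, differed by 0.42 ± 0.19 and Idh3b by -0.17 ± 0.17. Vdac3, a porin of the outer membrane, differed by -0.38 ± 0.20. In the cytosolic ribosome list Rpl7l1 differed by -0.53 ± 0.24 and Rps27, above background on 2 arrays, by 1.28 ± 0.35. Slc25a31, a carrier of the testis, was below background on all arrays.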
